A study of Mus musculus with 15 samples.

Results

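The genes described here are 9 markers of position along the long axis of the mouse dentate gyrus (DG), taken by symbol from the gene count tables of 15 RNA-seq libraries. *Lct*, *Gsg1l*, *Spata13* and *Stra6* are the 4 dorsal markers, and *Trhr*, *Cpne7*, *Nr2f2*, *Nr2f1* and *Resp18* are the 5 ventral ones. The tables list 32657 features, 23117 of them with a count in any library, and all 9 markers passed the expression filter of edgeR in each of the 9 comparisons made.

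The DG is the entry station of the hippocampal circuit, and its granule cells form a tightly packed layer that runs from the dorsal (septal) to the ventral (temporal) pole. Dorsal hippocampus is known for its part in spatial memory and ventral hippocampus for its part in emotion and anxiety, and granule cells and the mossy cells of the hilus differ in gene expression along this axis. Such positional genes serve to check where a piece of DG was cut.

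The study used mice on a C57BL/6J background, 8 to 12 weeks of age, in which a Drd3-Cre driver (line KI198) switched on the Rosa26-fsTRAP transgene, so that ribosomes of Cre-expressing granule and mossy cells carried EGFP-L10a. The conditional knockouts (cKO) were in addition Htr4-Floxed, so that *Htr4*, which encodes the serotonin 5-HT4 receptor, lost a single exon in the Cre-expressing cells, while wild types (WT) had intact *Htr4*. Cre and the tagged ribosome were thus present in both genotypes. The 6 groups were WT and cKO mRNA bound to tagged ribosomes of ventral DG (vDG IP), the whole tissue homogenate of the same region (vDG input) and the homogenate of dorsal DG (dDG input), each with 3 WT and 2 cKO libraries. No IP was made from dDG among the libraries analysed. The driver follows a bacterial artificial chromosome transgene and not the *Drd3* gene itself, and it is also active in part of the CA fields. Each library came from pooled tissue. The study's methods describe pools of 1 male and 1 female mouse, while the sample records give 3 mice for an IP and 2 for an input. Inputs are listed under cortex in the records but under DG in the titles and the study. All p-values measure the spread between these few pools.

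Libraries held 19039295 to 30451430 counts on genes, and levels are given as CPM (counts scaled to a common library size), adjusted by TMM, edgeR's correction for library composition. The labelled tissue was checked against marker genes: 5 granule cell markers (*Prox1*, *Dsp*, *C1ql2*, *Calb1* and *Tdo2*) summed to between 972 and 1511 CPM in the 15 libraries, and no gene of this list was at 0 in any group. *Htr4* averaged 15.7 ± 2.4 CPM (SD, n = 3) in WT vDG input and 28.3 ± 1.1 CPM (n = 2) in cKO vDG input, 15.0 ± 1.3 and 28.6 ± 2.3 CPM in the IPs, and 29.2 ± 4.6 and 49.0 ± 3.4 CPM in the dDG inputs. Counts over the whole gene include the exons outside the deleted one, so this higher level in cKO does not check the deletion. Transcripts of choroid plexus, the tissue that lines the ventricle beside the DG, set 2 libraries apart: *Ttr* reached 72.3 CPM in WT dDG input 2 and 120 CPM in WT dDG input 3, against 1.59 to 11.5 CPM in the other 8 inputs. Without WT dDG input 2 or 3 the regional log2 fold change in WT was -2.07 or -1.99 for *Lct*, 5.82 or 5.36 for *Trhr* and 0.63 or 0.58 for *Nr2f1*, and the 8 markers called with all libraries were still called.

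Upstream sequence was read for the members that the RefSeq promoter table of GRCm38.p6 holds, 6 of 9: *Lct*, *Spata13*, *Stra6*, *Nr2f2*, *Nr2f1* and *Resp18*. The table has no entry for *Trhr*, *Gsg1l* and *Cpne7*. Where a gene had several starts, the one nearest to the annotated gene end was used. For *Stra6* (4 starts) this start lay 65300 bp from that end, for *Nr2f1* (2 starts) 884 bp and for *Spata13* (2 starts) 704 bp. The 250 bases before the start of the most strongly dorsal marker and of the pair of ventral markers with a start within 11 bp of the annotated gene end are shown 5′ to 3′ on the gene's strand, because these members moved in opposite directions between the regions. Capitals mark CCAAT on either strand (CCAAT or ATTGG), the element bound by the general factor NF-Y.
Lct, chr1:128328319-128328568, minus strand: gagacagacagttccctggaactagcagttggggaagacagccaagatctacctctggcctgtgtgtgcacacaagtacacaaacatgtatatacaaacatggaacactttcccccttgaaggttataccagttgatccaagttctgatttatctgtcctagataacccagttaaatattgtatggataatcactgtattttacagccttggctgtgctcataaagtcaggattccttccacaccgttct
Nr2f2, chr7:70366747-70366996, minus strand: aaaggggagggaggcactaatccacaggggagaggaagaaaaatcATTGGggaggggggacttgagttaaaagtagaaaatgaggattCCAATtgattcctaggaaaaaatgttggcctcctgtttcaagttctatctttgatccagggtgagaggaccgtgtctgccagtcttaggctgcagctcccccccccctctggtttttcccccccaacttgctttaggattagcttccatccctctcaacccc
Resp18, chr1:75278416-75278665, minus strand: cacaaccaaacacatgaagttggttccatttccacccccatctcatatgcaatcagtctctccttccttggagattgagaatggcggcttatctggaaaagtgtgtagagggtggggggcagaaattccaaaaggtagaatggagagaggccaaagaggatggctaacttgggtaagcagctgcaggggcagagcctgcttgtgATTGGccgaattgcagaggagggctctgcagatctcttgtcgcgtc
CCAAT was found 0 times before *Lct*, *Spata13* and *Nr2f1*, 1 time before *Stra6* and *Resp18* and 2 times before *Nr2f2*, and 33.8% of all 32851 promoters in the table held it. AGGTCA, the half-site of nuclear receptors such as those encoded by *Nr2f1* and *Nr2f2*, was searched on both strands (AGGTCA or TGACCT) and was in none of the 6 members' windows, against 14% of all promoters. TATAAA (or TTTATA) was also in none of the 6, against 12.4% of all. CG dinucleotides separated the members more than these letters did: 22 stood in the *Nr2f1* window and 16 in the *Spata13* window, 4 each before *Resp18* and *Stra6* and 1 each before *Lct* and *Nr2f2*, against a median of 6. The share of all promoters with as few CG dinucleotides or fewer was 86.7% for *Nr2f1* and 18.8% for *Nr2f2*.

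The first comparison asks how the markers differ between the tissue of the ventral and of the dorsal DG. In WT, 3 of 4 dorsal markers were lower in vDG input than in dDG input and 5 of 5 ventral markers were higher (edgeR's quasi-likelihood test, Benjamini-Hochberg adjusted p, called FDR, under 0.05). Of the 15412 genes tested, 6.09% were called lower and 9.26% higher. The same 8 markers were called in the same direction in cKO, where 8.47% of 15505 genes were called lower and 8.56% higher, and the WT and cKO fits share no library. *Stra6* was the marker not called in either genotype. The median log2 fold change of the dorsal markers was -1.18 in WT and -0.95 in cKO and that of the ventral markers 3.61 and 3.40, beside medians of -0.01 and 0.01 over all genes. The size of the change varied within both sets. The 3 dorsal markers called kept 23.5% to 55.3% of their dDG level in vDG. Of the ventral markers, *Trhr*, *Cpne7* and *Nr2f2* had 1.19% to 9.35% of their vDG level in dDG, *Resp18* had 23.9% in WT and 18.1% in cKO, and *Nr2f1* had 63.8% and 57.2%. Of all calls in cKO 50.3% were higher in vDG with TMM and 65.3% with scaling by library size alone.

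**Figure D1:**
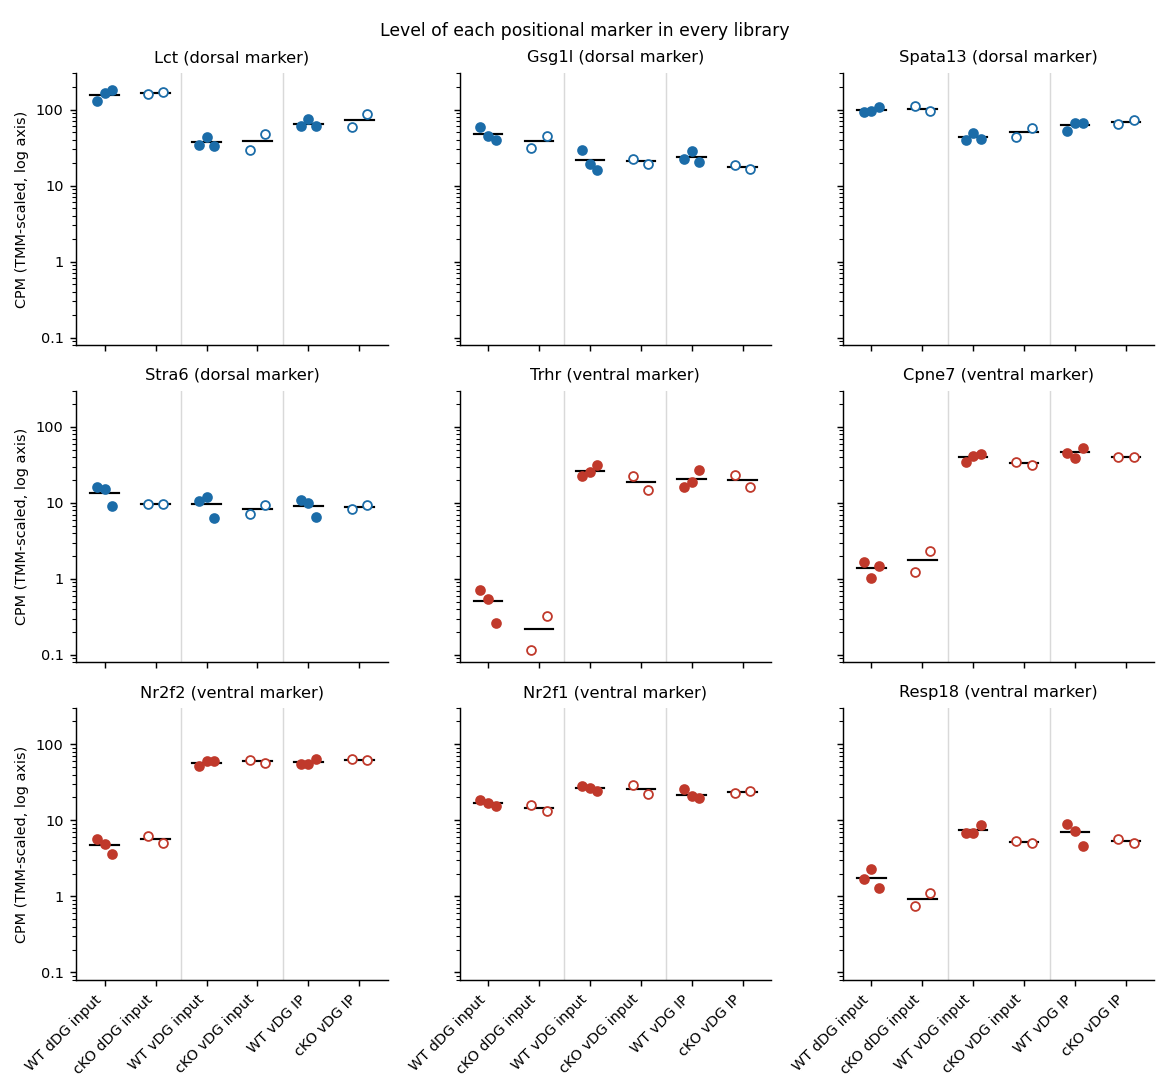
Level of each positional marker in every library (TMM-scaled CPM, log axis, the same range in all panels) by group. Filled points are WT and open points cKO libraries, bars are group means, blue marks dorsal and red marks ventral markers. *Trhr* stays under 1 CPM in all 5 dDG inputs, while *Lct* stays above 29 CPM in all 5 vDG inputs.

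*Lct*, on the minus strand of chromosome 1 (mm10, 128284756 to 128328318), encodes lactase, the intestinal enzyme that splits milk sugar, and is a known marker of dorsal granule cells. The WT dDG inputs held 127.9, 164 and 180.2 CPM and the cKO dDG inputs 158 and 169 CPM. The WT vDG inputs held 33.97, 43.4 and 33.3 CPM and the cKO vDG inputs 29.7 and 48.3 CPM. Every dDG input thus lay above every vDG input in both genotypes, and *Lct* fell 4.28-fold in WT vDG (log2 fold change -2.10 ± 0.15 SE, FDR = 5.52e-08, edgeR) and 4.21-fold in cKO vDG (-2.07 ± 0.16, FDR = 1.57e-08). Over all alternatives the WT log2 fold change lay between -2.24 and -1.99 and the cKO one between -2.47 and -1.78. With 23.5% of the WT dDG level in WT vDG, *Lct* was still the most abundant dorsal marker per kilobase in vDG input, at 5.76 CPM per kb of exon, together with *Gsg1l* at 5.49.

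*Spata13* (chromosome 14, 60634001 to 60764556, plus strand) encodes ASEF2, an exchange factor that activates the small GTPases Rac and Cdc42 and acts on cell shape and migration. Its levels were 91.8, 96.4 and 107 CPM in the WT dDG inputs and 110.1 and 95.3 CPM in the cKO ones. In vDG input they were 39.6, 49.0 and 40.8 CPM in WT and 43.5 and 56.6 CPM in cKO. The regions did not overlap in either genotype, and *Spata13* fell by 1.19 ± 0.12 on the log2 scale in WT (FDR = 4.05e-06, edgeR) and by 1.04 ± 0.13 in cKO (FDR = 1.05e-05).

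*Gsg1l* (chromosome 7, 125878420 to 126082411, minus strand) encodes an auxiliary subunit of AMPA-type glutamate receptors that slows their recovery from desensitization. The WT dDG inputs held 59.1, 44.9 and 39.9 CPM against 29.3, 19.2 and 16.2 CPM in WT vDG, and the cKO dDG inputs held 30.8 and 45.1 CPM against 22.6 and 19.3 CPM in cKO vDG. *Gsg1l* fell 2.24-fold in WT (log2 fold change -1.16 ± 0.19, FDR = 0.000422, edgeR) and 1.81-fold in cKO (-0.86 ± 0.16, FDR = 0.000844). Without cKO dDG input 2 the cKO log2 fold change of *Gsg1l* was -0.56 (FDR = 0.0331), and without cKO dDG input 1 it was -1.12. The gap between the regions was narrow, with WT vDG input 1 at 29.3 CPM and cKO dDG input 1 at 30.8 CPM, although these 2 libraries belong to different genotypes.

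*Stra6* (chromosome 9, 58063788 to 58153996, plus strand) encodes the membrane receptor for retinol-binding protein, through which cells take up vitamin A. It was the least abundant dorsal marker: the WT dDG inputs held 16.3, 15.2 and 9.13 CPM and the WT vDG inputs 10.5, 12.0 and 6.38 CPM, so that the regions overlapped. In cKO, dDG inputs held 9.56 and 9.81 CPM and vDG inputs 7.08 and 9.51 CPM, which do not overlap, although the nearest libraries stood at 9.56 and 9.51 CPM. The log2 fold change was -0.49 ± 0.23 in WT (FDR = 0.186, edgeR) and -0.23 ± 0.19 in cKO (FDR = 0.463). The WT library with the lowest dorsal *Stra6*, dDG input 3, was the one with the highest *Ttr*, and without it *Stra6* was called lower in WT vDG (log2 fold change -0.72 ± 0.22, FDR = 0.0369). The part of the choroid plexus transcripts in this was not tested.

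*Trhr* (chromosome 15, 44196135 to 44235912, plus strand) encodes the receptor for thyrotropin-releasing hormone, a G-protein-coupled receptor. The dDG inputs held 16, 11 and 8 *Trhr* counts in WT and 3 and 7 in cKO, or 0.719, 0.545 and 0.262 CPM and 0.117 and 0.327 CPM. The vDG inputs held 584, 742 and 807 counts in WT (22.4, 25.4 and 31.8 CPM) and 593 and 398 in cKO (22.6 and 14.6 CPM). Summed over libraries, the dorsal level was 0.479 CPM in WT (95% exact Poisson interval 0.334 to 0.667) and 0.213 CPM in cKO (0.102 to 0.391). These intervals cover counting error only, since no molecular identifiers were used. *Trhr* rose in vDG, with log2 fold changes of 5.75 ± 0.27 in WT (53.9-fold, FDR = 2.93e-10, edgeR) and 6.41 ± 0.36 in cKO (84.8-fold, FDR = 1.39e-10). The size in cKO rested on few dorsal counts: it was 5.79 without cKO dDG input 1 and 7.25 without cKO dDG input 2. It ranked 5 of 15412 genes in WT and 5 of 15505 in cKO when genes were ordered from the highest to the lowest change.

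*Cpne7* (chromosome 8, 123117374 to 123135182, plus strand) encodes a copine, a protein that binds phospholipid membranes when calcium rises. Its dDG levels were 1.66, 1.04 and 1.47 CPM in WT and 1.249 and 2.34 CPM in cKO, and its vDG levels were 34.2, 41.5 and 43.4 CPM and 34.8 and 31.8 CPM. The lowest vDG input (31.8 CPM) thus stood far above the highest dDG input (2.34 CPM), and *Cpne7* rose 28.1-fold in WT (log2 fold change 4.81 ± 0.19, FDR = 6.02e-11, edgeR) and 18.8-fold in cKO (4.23 ± 0.22, FDR = 5.58e-11). In WT vDG it was the ventral marker with the most reads per length, at 7.53 CPM per kb.

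*Nr2f2* (chromosome 7, 70351944 to 70366735, minus strand) and *Nr2f1* (chromosome 13, 78188973 to 78199757, minus strand) encode COUP-TFII and COUP-TFI, a pair of closely related orphan nuclear receptors that act as transcription factors in brain development. *Nr2f2* stood at 5.70, 4.85 and 3.63 CPM in WT dDG and 6.28 and 5.001 CPM in cKO dDG, against 51.6, 59.7 and 60.9 CPM in WT vDG and 63.2 and 57.5 CPM in cKO vDG. It rose 12.2-fold in WT (log2 fold change 3.61 ± 0.17, FDR = 3.36e-10, edgeR) and 10.6-fold in cKO (3.40 ± 0.16, FDR = 5.07e-12). *Nr2f1*, by contrast, was plainly present in dDG, at 18.5, 16.7 and 15.7 CPM in WT and 16.2 and 13.3 CPM in cKO. Its vDG levels of 28.2, 27.0 and 24.6 CPM in WT and 28.9 and 22.5 CPM in cKO lay above all of these, and the change was 1.56-fold in WT (log2 fold change 0.64 ± 0.13, FDR = 0.00288) and 1.74-fold in cKO (0.80 ± 0.16, FDR = 0.00168). Per kilobase the order of the pair turned over: *Nr2f1* averaged 3.33 CPM per kb in WT dDG against 0.55 for *Nr2f2*, and 5.22 against 6.66 in WT vDG.

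*Nr2f1* and *Nr2f2* each share exon sequence with a gene on the other strand, by 123 bp with *A830082K12Rik* and by 643 bp with *B130024G19Rik*, and the library kit does not mark strand. *A830082K12Rik* had more counts than *Nr2f1* in every library (643 to 1649 against 284 to 786) and changed in the same direction between regions as *Nr2f1* (log2 fold change 0.80 ± 0.15, FDR = 0.00101 in WT, edgeR). *B130024G19Rik* had 1 to 51 counts per library, at most 1.87 CPM, and was also higher in WT vDG (2.78, FDR = 0.00399). Reads in the shared stretches cannot be told apart by strand.

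*Resp18* (chromosome 1, 75272199 to 75278415, minus strand) encodes a protein of the secretory pathway of endocrine and neuroendocrine cells, related to the dense-core granule. In the vDG libraries it was the ventral marker with the fewest counts, and it is the shortest, with 1032 bp of exon. The dDG inputs held 1.71, 2.33 and 1.28 CPM in WT and 0.742 and 1.12 CPM in cKO, and the vDG inputs 6.89, 6.72 and 8.59 CPM in WT and 5.29 and 4.99 CPM in cKO. *Resp18* rose 4.22-fold in WT (log2 fold change 2.08 ± 0.25, FDR = 1.64e-05, edgeR) and 5.53-fold in cKO (2.47 ± 0.32, FDR = 1.43e-05). Per kilobase its level was 7.17 CPM per kb in WT vDG, between *Cpne7* (7.53) and *Nr2f2* (6.66), and 4.98 in cKO vDG, below both (6.32 and 6.998). It overlaps the antisense gene *Gm28902* by 40 bp, and that gene was not analysed here.

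**Figure D2:**
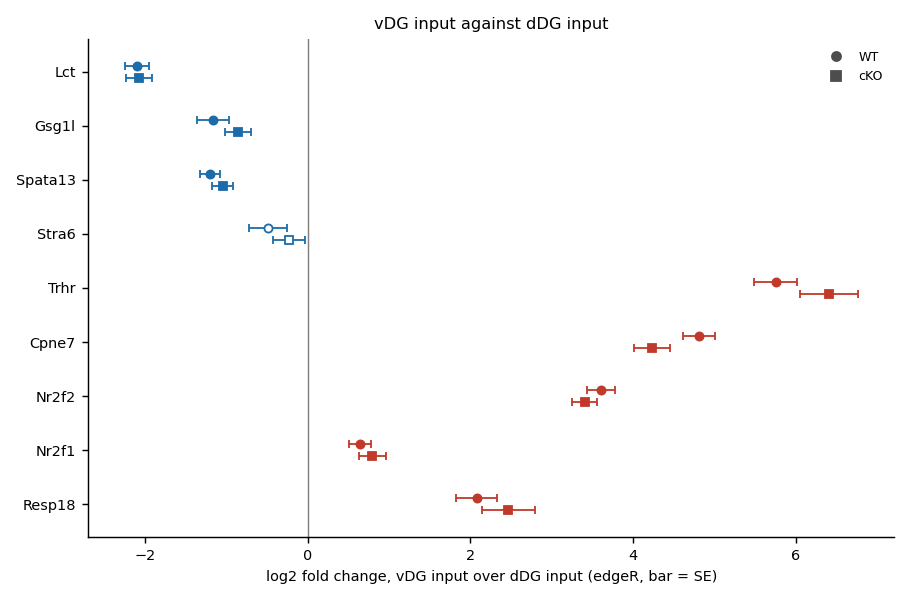
Log2 fold change of vDG input over dDG input for each marker from edgeR, with SE bars, in WT (circles) and cKO (squares); filled symbols passed FDR 0.05. All 5 ventral markers lie above 0, from 0.64 for *Nr2f1* to 6.41 for *Trhr*, and the dorsal markers lie between -2.10 and -0.23, with *Stra6* open in both genotypes.

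For 8 of 9 markers in WT and 9 of 9 in cKO the libraries of the 2 regions did not overlap, whereas 31.3% of all genes in WT and 58.1% in cKO did not. With 3 libraries against 3 in WT no exact permutation test of a single gene can go below a two-sided p of 0.10. With 2 against 2 in cKO this limit is higher still, so the calls rest on the spread that edgeR shares between genes. Leaving out any one library, or changing the scaling, the filter or the tool, ended none of the 8 regional calls in either genotype wherever the marker was tested, but the filter of 10 counts in every library removed *Trhr* from both fits.

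Set against all genes, *Trhr*, *Cpne7*, *Nr2f2* and *Lct* were among the strongest regional differences, while *Nr2f1* stood lower in its order than *Spata13* and *Gsg1l* did in theirs. Of the genes with a mean of at least 5 CPM over the inputs, 556 were higher and 434 lower in vDG in both genotypes. Ordered by the smaller of the WT and cKO changes, *Trhr* stood at place 2, *Cpne7* at 4, *Nr2f2* at 7 and *Nr2f1* at 330 of the 556. *Lct* stood at place 6, *Spata13* at 59 and *Gsg1l* at 93 of the 434. *Resp18* averaged under 5 CPM over the inputs and was not placed. Around them at the top of the ventral order were *Vgll3*, a cofactor of TEAD transcription factors with 510, 741 and 757 counts in WT vDG against 1, 3 and 4 in WT dDG, and *Calb2*, which encodes the calcium-binding protein calretinin (log2 fold change 5.01 ± 0.21 in WT and 5.22 ± 0.20 in cKO). At the top of the dorsal order were the feature *abParts* (-4.19 in WT and -3.63 in cKO), the secreted phospholipase gene *Pla2g2f* (-3.15 and -3.07) and the dopamine D1 receptor gene *Drd1* (-2.57 and -2.73).

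**Figure D3:**
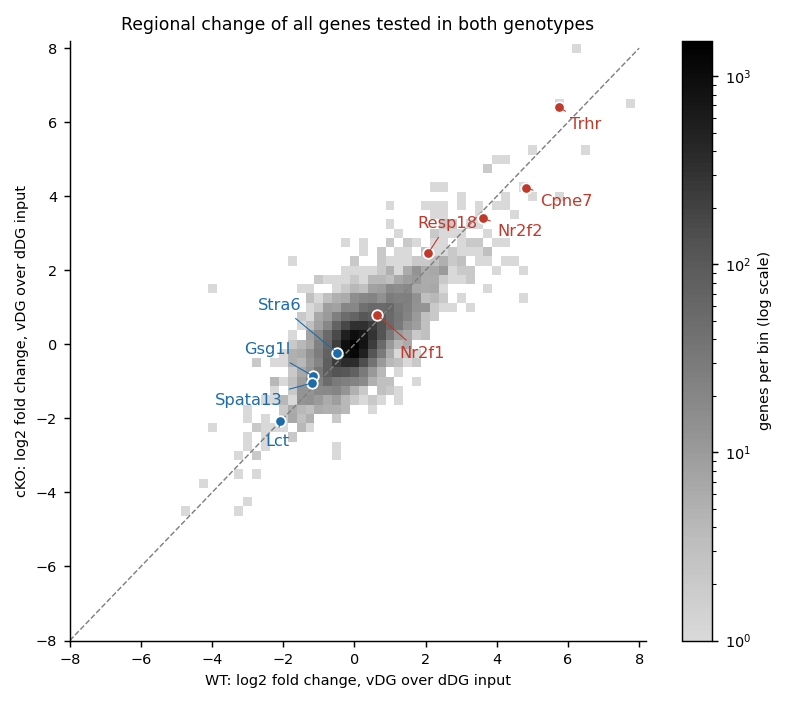
Log2 fold change of vDG over dDG input in WT (x axis) and cKO (y axis) for the genes tested in both genotypes, counted in bins 0.25 wide (grey, log scale) with the 9 markers as labelled points (blue dorsal, red ventral) and a dashed line of equal change. *Trhr*, *Cpne7* and *Nr2f2* lie beyond a log2 change of 3 on both axes, *Nr2f1* and *Stra6* lie within the dense centre.

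The genes most like *Lct* and *Trhr* over the 10 inputs were sought by Pearson correlation of log2 CPM among 10447 genes. These values describe how closely a gene followed the split into 2 regions, which the 10 libraries share. For *Lct* they were *Plekha5* (0.991), *Spata13* (0.987), itself a marker, and *Stxbp6* (0.985), which encodes the SNARE regulator amisyn. For *Trhr* they were *Efnb2* (0.994), which encodes the ligand ephrin-B2, *Tcerg1l* (0.992) and the zinc-finger factor gene *Zfp423* (0.989). *Plekha5* had a log2 fold change of -1.49 in WT and -1.54 in cKO, and *Efnb2* one of 2.11 and 2.36, so both genes followed the markers in direction with a smaller change than *Lct* and *Trhr*.

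Cell type markers differed between the regions as well. Granule cell markers summed to 972 to 1105 CPM in vDG inputs and 1478 to 1511 CPM in dDG inputs, and 3 of 5 were called lower in WT vDG and 4 of 5 in cKO vDG. Mossy cell markers, a list that holds *Calb2*, summed to 75.7 to 101 CPM in vDG and 12.3 to 16.0 CPM in dDG, with 2 of 5 called higher and 1 of 5 lower in each genotype. In vDG *Calb2* made up most of this sum (a mean of 70.8 CPM in WT vDG, against 2.19 CPM in WT dDG), and *Nmb* was lower in vDG (1.28 and 3.93 CPM). CA3 markers summed to 225 to 245 CPM in vDG and 99.5 to 126 CPM in dDG, with 2 of 4 called higher in WT and 1 of 4 in cKO. *Lypd1* made up most of this sum (a mean of 182 CPM in WT vDG and 75.2 CPM in WT dDG), while *Iyd* averaged 4.54 and 4.72 CPM. Interneuron markers summed to 432 to 598 and 372 to 463 CPM, with 3 of 9 called higher in each genotype and 1 of 9 lower in cKO. None of these 4 lists had a gene at 0 in any group. In bulk tissue fewer cells of a type and less RNA per cell cannot be told apart, and the part of cell composition in the markers' differences was not tested.

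The second comparison asks whether the markers are found on the tagged ribosomes of the Cre-expressing cells, by setting the vDG IP against the vDG input. All 9 markers were present in all 5 IPs. In WT and in cKO, 2 of 9 were enriched (FDR under 0.05 and above the minimum fold change of the study's methods), both of them dorsal markers, *Lct* and *Spata13*. Over all genes 7.72% were enriched in WT and 11.4% in cKO. No marker was depleted (fold change under 0.5) by edgeR or by DESeq2, against 11.4% of all genes in WT and 10.7% in cKO. *Lct* and *Spata13* were also the only members with an unadjusted p under 0.05 (edgeR), against 5415 of 15011 genes in WT and 5880 of 15126 in cKO. The median log2 fold change of the dorsal markers was 0.30 in WT and 0.22 in cKO and that of the ventral markers -0.12 and 0.01, beside 0.00 and -0.03 over all genes.

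*Lct* stood at 61.4, 74.1 and 60.6 CPM in the WT IPs and 58.4 and 88.2 CPM in the cKO IPs, all above the highest vDG input of 48.3 CPM and below the lowest dDG input of 127.9 CPM. It was enriched 1.74-fold in WT (log2 fold change 0.80 ± 0.14, FDR = 0.00114, edgeR) and 1.81-fold in cKO (0.86 ± 0.22, FDR = 0.0115). In WT the call was kept under every alternative, with a log2 fold change between 0.67 and 0.94. In cKO it was lost with DESeq2 (0.87, FDR = 0.152) and without cKO vDG input 1 (0.56, FDR = 0.0755). *Lct* in the IP amounted to 41.6% of the WT dDG input level and 44.8% of the cKO one.

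*Spata13* stood at 52.3, 67.0 and 66.3 CPM in the WT IPs and 65.3 and 72.0 CPM in the cKO IPs, and within each genotype the IPs lay above the inputs. It was enriched 1.41-fold in WT (log2 fold change 0.49 ± 0.14, FDR = 0.0206, edgeR) and 1.32-fold in cKO (0.40 ± 0.14, FDR = 0.0474). This enrichment was the weakest of the calls on the markers. Scaling by library size alone ended it in both genotypes (FDR = 0.0754 in WT and 0.262 in cKO), and the filter of at least 10 counts in every library ended it in cKO (FDR = 0.0675). So did leaving out WT vDG IP 2, WT vDG input 1, WT vDG input 3, cKO vDG IP 2 or cKO vDG input 1, with log2 fold changes of *Spata13* between 0.23 and 0.46 and FDRs of 0.0841, 0.0882, 0.0781, 0.111 and 0.343.

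The other dorsal markers were not called between fractions. *Gsg1l* held 22.002, 28.9 and 20.2 CPM in the WT IPs and 18.6 and 16.5 CPM in the cKO IPs, with a log2 fold change over input of 0.11 ± 0.21 in WT (FDR = 0.737, edgeR) and -0.31 ± 0.16 in cKO (FDR = 0.178). In cKO both IPs lay below both inputs, and with library size alone *Gsg1l* had a log2 fold change of -0.48 and an FDR of 0.0488 (edgeR), short of the fold set for depletion. *Stra6* held 10.8, 9.86 and 6.51 CPM in the WT IPs and 8.28 and 9.36 CPM in the cKO IPs, and its log2 fold changes were -0.12 ± 0.25 and 0.03 ± 0.23.

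Among the ventral markers *Nr2f2* had the value nearest to 0, with 54.9, 55.6 and 64.4 CPM in the WT IPs and 63.7 and 61.5 CPM in the cKO IPs and log2 fold changes of -0.0041 ± 0.13 and -0.0019 ± 0.12. *Trhr* was at 16.2, 18.8 and 27.2 CPM in WT IPs and 23.5 and 16.2 CPM in cKO IPs (log2 fold change -0.38 ± 0.19, FDR = 0.171 in WT and 0.04 ± 0.23 in cKO, edgeR). *Cpne7* was at 45.9, 39.4 and 53.4 CPM and at 40.2 and 39.7 CPM (0.19 ± 0.15 and 0.21 ± 0.13), and IPs and inputs overlapped in WT but not in cKO. *Nr2f1* was at 25.5, 20.7 and 19.4 CPM in WT IPs and 23.2 and 23.995 CPM in cKO IPs (-0.31 ± 0.15, FDR = 0.16, and -0.18 ± 0.16). *Resp18* was at 9.07, 7.20 and 4.56 CPM and at 5.66 and 5.06 CPM (-0.12 ± 0.24 and 0.01 ± 0.26). None of these 5 markers was called in either genotype, and in WT all 5 had IPs and inputs that overlapped. Depletion needed a larger fold than enrichment: without WT vDG IP 3 *Trhr* had a log2 fold change of -0.61 and an FDR of 0.0137 (edgeR) in WT and was still not called.

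Groups of IPs and inputs did not overlap for 2 of 9 markers in WT and 4 of 9 in cKO, against 40.5% and 65.5% of all genes. Other cell types moved far more between these fractions than the markers did. Astrocyte markers were depleted in 4 of 4 and microglial markers in 4 of 4 genes in both genotypes, interneuron markers in 7 of 9 in WT and 6 of 9 in cKO and oligodendrocyte markers in 3 of 4. Of the granule cell markers 2 of 5 were enriched in WT (*Dsp* and *C1ql2*) and 4 of 5 in cKO, and mossy cell markers were enriched in 0 of 5, with *Calcrl* depleted in WT. The part of this shift in composition in the higher *Lct* and *Spata13* was not tested. The split of calls over all genes depended on scaling: 40.4% of called genes were enriched in WT and 51.4% in cKO with TMM, and 20.3% and 27.1% with library size alone, which moved the median of all genes to -0.13 and -0.20.

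**Figure D4:**
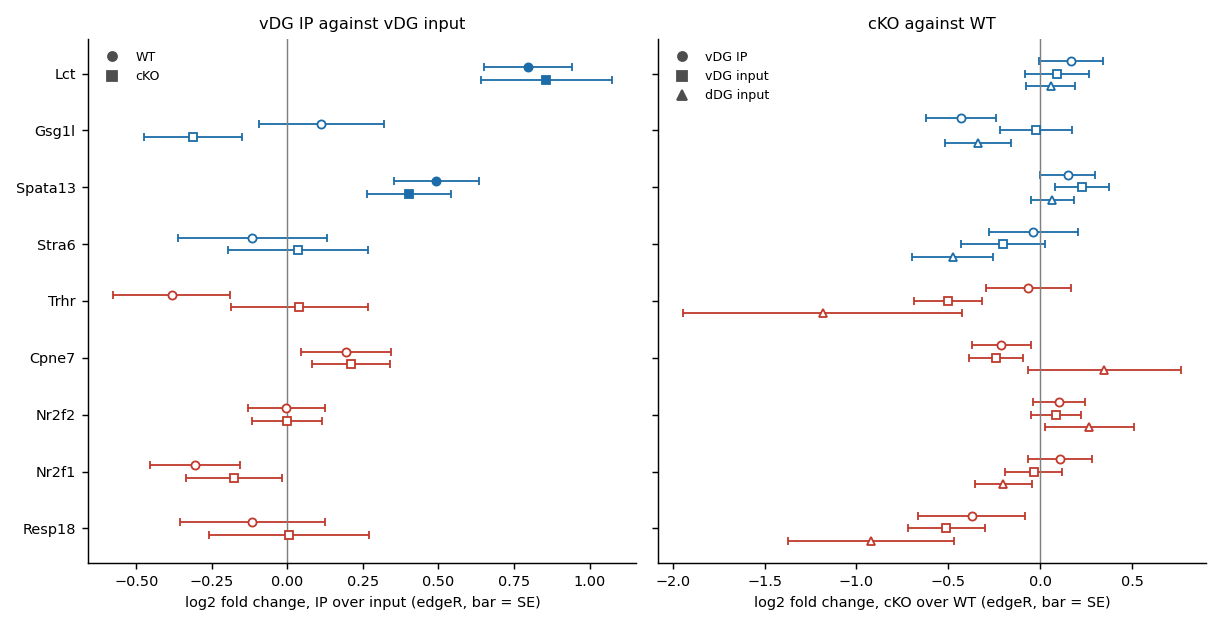
Log2 fold changes from edgeR with SE bars for each marker: vDG IP over vDG input in WT (circles) and cKO (squares) on the left, and cKO over WT in vDG IP (circles), vDG input (squares) and dDG input (triangles) on the right. Filled symbols were called: *Lct* and *Spata13* on the left, none on the right.

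The third comparison asks whether loss of functional 5-HT4 receptor in Cre-expressing cells went with a different level of the positional markers. No marker was called in vDG IP (FDR under 0.1), vDG input or dDG input (FDR under 0.05), by edgeR or by DESeq2. Over all genes 0.42% were called in the vDG IP, 2.44% in the vDG input and 0.0325% in the dDG input. At an unadjusted p under 0.05 stood 1 marker in the vDG IP (*Gsg1l*), 2 in the vDG input (*Trhr* and *Resp18*) and 1 in the dDG input (*Stra6*). Over all genes these were 1674 of 14300 in the vDG IP, 2338 of 15786 in the vDG input and 1881 of 15383 in the dDG input. DESeq2 gave an adjusted p for 7, 9 and 6 of the 9 markers. Groups did not overlap for 1 of 9 markers in each of the 3 comparisons, against 31.1%, 32.2% and 29.4% of all genes.

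The markers with the lowest p in these comparisons were each lower in cKO. So were most of all genes called: 16.7% of the calls were higher in cKO in the vDG IP, 4.42% in the vDG input and 20% in the dDG input. *Trhr* in vDG input averaged 26.5 ± 4.8 CPM in WT (n = 3) and 18.6 ± 5.6 CPM in cKO (n = 2), a log2 fold change of -0.50 ± 0.19 (FDR = 0.179, edgeR), and cKO vDG input 1 at 22.6 CPM lay within the WT range of 22.4 to 31.8 CPM. Without WT vDG input 1 *Trhr* was called lower in cKO (-0.61 ± 0.18, FDR = 0.0352). Without cKO vDG input 2, the library with the lowest *Trhr* of the vDG inputs, the log2 fold change was -0.22 (FDR = 0.757), and without cKO vDG input 1 it was -0.84 (FDR = 0.177), the ends of its range over all alternatives. *Resp18* in vDG input averaged 7.40 ± 1.03 CPM in WT and 5.14 ± 0.21 CPM in cKO, with no overlap (-0.51 ± 0.21, FDR = 0.244). *Gsg1l* in the vDG IP averaged 23.7 ± 4.6 and 17.6 ± 1.5 CPM (-0.43 ± 0.19, FDR = 0.404), and *Stra6* in dDG input 13.6 ± 3.9 and 9.69 ± 0.18 CPM (-0.48 ± 0.22, FDR = 0.406).

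*Lct*, *Spata13* and *Nr2f2* had log2 fold changes between cKO and WT of 0.06 to 0.27 in the 3 comparisons, each with an SE of 0.12 to 0.24, and *Nr2f1* ones of -0.20 to 0.11. *Cpne7* differed by -0.21 ± 0.16 in the vDG IP, -0.24 ± 0.15 in the vDG input and 0.35 ± 0.42 in the dDG input. In dDG input *Trhr* (-1.18 ± 0.76) and *Resp18* (-0.92 ± 0.45) had the widest errors of the markers, with 3 to 16 and 19 to 47 counts per library. Over the alternatives that tested them, *Trhr* there lay between -2.04 and -0.61 and *Resp18* between -1.23 and -0.65.

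The regional difference itself was compared between genotypes by an interaction over the 10 inputs. It was called for no marker at an FDR under 0.05 with edgeR or among the 4 of 9 to which DESeq2 gave an adjusted p, and for 0% of all 16306 genes with edgeR. No marker had an unadjusted p under 0.05 (edgeR), against 2010 of the 16306 genes. The interaction terms of the markers lay between -0.58 ± 0.33 for *Cpne7* (FDR = 0.492) and 0.65 ± 0.64 for *Trhr* (FDR = 0.737), and that of *Lct* was 0.02 ± 0.25. The interaction of genotype and fraction over the vDG libraries was likewise called for 0 of 9 markers by edgeR and by DESeq2 and for 0% of 16093 genes. No marker had an unadjusted p under 0.05 (edgeR), against 497 of the 16093 genes, and the terms lay between -0.40 ± 0.31 for *Gsg1l* and 0.45 ± 0.33 for *Trhr*.

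Within a group the libraries differed in their dorsoventral balance. The log2 ratio of *Trhr* to *Lct* counts lay between -10.39 and -7.48 in the 5 dDG inputs, between -1.72 and -0.07 in the 5 vDG inputs and between -2.44 and -1.16 in the 5 IPs, so that no dDG input overlapped a vDG library. Counts on the 4 dorsal markers made up 91.2% to 93.8% of the counts on all 9 markers in dDG inputs and 36.3% to 50.4% in vDG inputs. The vDG input with the most dorsal balance was cKO vDG input 2, with a ratio of -1.72, against -0.40 in cKO vDG input 1 and -0.77 to -0.07 in WT. In that library *Lct* (48.3 CPM) and *Spata13* (56.6 CPM) were the highest and *Trhr* (14.6 CPM), *Cpne7* (31.8 CPM), *Nr2f1* (22.5 CPM) and *Resp18* (4.99 CPM) the lowest of the 5 vDG inputs. *Gsg1l* (19.3 CPM) and *Stra6* (9.51 CPM) had the middle value of the 5 there, and *Nr2f2* (57.5 CPM) was above its level in WT vDG input 1 (51.6 CPM). The cKO vDG IP 2 had the lowest ratio of the IPs (-2.44), with the highest *Lct* (88.2 CPM) and *Spata13* (72.0 CPM) but the lowest *Gsg1l* (16.5 CPM) and a *Nr2f1* level (23.995 CPM) exceeded in 1 IP. Its share of dorsal counts, 55.9%, was also that of WT vDG IP 2. At the other end stood WT vDG input 3, with a ratio of -0.07, the highest *Trhr* (31.8 CPM) and *Resp18* (8.59 CPM) of the 5 vDG inputs and 36.3% dorsal counts.

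**Figure D5:**
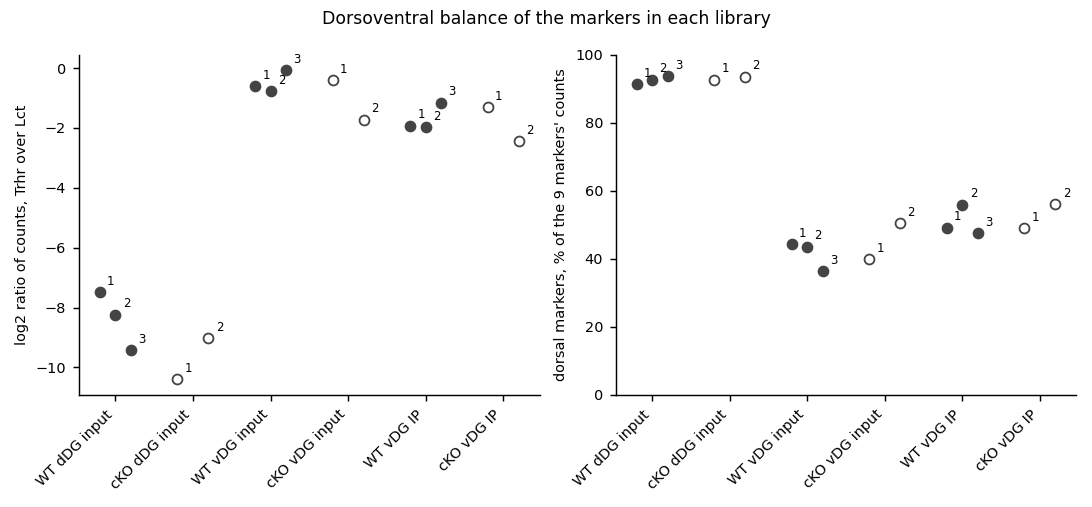
Balance of ventral and dorsal markers in every library by group, with the replicate number beside each point (filled WT, open cKO): log2 ratio of *Trhr* to *Lct* counts on the left, and the 4 dorsal markers' percent of the counts on all 9 markers on the right. The dDG inputs stand apart from all vDG libraries, and within cKO replicate 2 lies toward dorsal in both vDG input and IP.

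Genes related to each marker by function were counted over whole lists, to be read against the 9.26% of all genes higher and 6.09% lower in WT vDG and the 8.56% and 8.47% in cKO vDG. Retinoid genes, the partners of *Stra6*, were called in both directions between regions: 4 of 16 tested were higher and 4 lower in WT vDG, and 7 and 3 of 17 in cKO. The WT calls included *Cyp26a1*, which encodes an enzyme that degrades retinoic acid and had 19, 18 and 31 counts in WT vDG input against 0, 3 and 0 in WT dDG input, and *Rxrg*, a retinoid X receptor gene (log2 fold change 1.97 ± 0.49, FDR = 0.0108, edgeR). On the dorsal side stood *Ttr* (-4.12 ± 0.69), which encodes the carrier transthyretin, and *Rbp4* (-2.05 ± 0.38), which encodes the retinol-binding protein that *Stra6* recognizes. *Ttr* turned direction in cKO (1.46 ± 0.36, FDR = 0.0077), where no dDG library carried high *Ttr*. *Rbp4* was also lower in cKO vDG (-1.53 ± 0.46, FDR = 0.0235).

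Counts on *Trh*, which encodes the ligand of *Trhr*, were few. *Trh* had 26 and 4 counts in the cKO IPs, 3 each in WT vDG IP 2 and WT vDG input 3 and 0 in every other library, and *Trhr2* had at most 1 count in a library. *Trhde*, which encodes the enzyme that degrades the hormone, was tested alone of this list and was called in neither region comparison, while it was enriched in the WT IP (log2 fold change 0.54 ± 0.17, FDR = 0.0328, edgeR) and not in the cKO IP (0.24).

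Among the 8 other copines, 5 were higher in WT vDG and 0 lower, and 3 were higher and 1 lower in cKO vDG. *Cpne2* changed most in both (log2 fold change 2.45 ± 0.17 in WT and 2.04 ± 0.15 in cKO), still under the change of *Cpne7*, and *Cpne9* was the one lower in cKO (-0.71 ± 0.17, FDR = 0.0046, edgeR). Of the 4 receptors nearest to the COUP-TFs only *Nr2e1*, which encodes the progenitor factor TLX, was called: it was higher in WT vDG (0.63 ± 0.15, FDR = 0.00921) and depleted from the IP in both genotypes (-3.82 ± 0.23 and -3.01 ± 0.25). *Nr2f1* and *Nr2f2* were not depleted in the same fits.

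The AMPA receptor list of *Gsg1l* had 2 of 15 genes higher and 2 lower in WT vDG, and 1 and 4 in cKO. *Cacng5*, which like *Gsg1l* encodes an auxiliary subunit, fell in vDG in both (log2 fold change -1.27 ± 0.20 in WT and -1.51 ± 0.26 in cKO), as did *Cnih3* (-0.60 ± 0.13 and -0.83 ± 0.11). Of 12 exchange factors for Rac and Cdc42 beside *Spata13*, 2 were higher and 4 lower in WT vDG and 1 and 5 in cKO. The lower ones in WT included *Kalrn* (-0.65 ± 0.11) and *Vav3* (-0.61 ± 0.15), and the highest was *Arhgef6* (1.82 ± 0.14 in WT and 1.30 ± 0.14 in cKO). In the IP 3 of the 12 were enriched and 1 depleted (*Prex2*) in WT, and 5 enriched and 1 depleted (*Vav2*) in cKO, against 7.72% and 11.4% of all genes in WT and 11.4% and 10.7% in cKO. Like *Spata13*, *Kalrn* was enriched in the IP (1.06 ± 0.11 in WT and 1.23 ± 0.10 in cKO), and so were *Tiam1* (0.67 ± 0.12 and 0.71 ± 0.12) and *Dock10* (0.83 ± 0.16 and 1.13 ± 0.11).

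Dense-core granule genes, the list of *Resp18*, differed between genotypes in how many were called: 7 of 12 were higher and 0 lower in WT vDG, and 4 higher and 4 lower in cKO vDG. The difference between these counts was not tested, and no gene of the 12 was called in the interaction of genotype and region. *Pcsk1*, which encodes a prohormone convertase, was higher in vDG in both (log2 fold change 1.84 ± 0.31 and 1.09 ± 0.34), as was *Vgf*, which encodes a neuropeptide precursor (0.88 ± 0.22 and 1.33 ± 0.20). Between genotypes 6 of the 12 were lower in cKO vDG input and 0 higher, among them *Scg3* (-0.83 ± 0.14, FDR = 0.00344, edgeR) and *Chgb* (-0.81 ± 0.15, FDR = 0.00595). Over all genes 2.44% were called there in either direction, and only 4.42% of these calls were higher in cKO. None of the 12 was called in the vDG IP or the dDG input. The median of the list in vDG input was -0.54, beside 0.01 over all genes and -0.51 for *Resp18*, which was not called. In alternatives added after the data were seen, 1 of the 12 was called lower without cKO vDG input 1, 1 without cKO vDG input 2 and 4 with all groups in 1 fit, while all 12 log2 fold changes were below 0 in each. Some cell type markers also differed here. The meningeal gene *Igf2* (1.10 ± 0.20) and *Ttr* (1.11 ± 0.29) were higher in cKO vDG input, 1 of 3 meningeal and 1 of 4 choroid plexus genes tested. The astrocyte genes *Aqp4* (-0.59 ± 0.15) and *Gja1* (-0.62 ± 0.14) were lower, 2 of 4 on their list, as was 1 of 5 granule cell markers. The meningeal gene *Lum* averaged 2.22 CPM in WT and 1.45 CPM in cKO, and the astrocyte gene *Gfap* 66.0 and 63.5 CPM. The part of other tissue in the lower dense-core genes was not tested.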

How the data were processed

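RNA-seq was made from ribosome-bound mRNA (IP) and tissue homogenate (input) of mouse DG, amplified with NuGEN Ovation V2, which neither marks strand nor adds molecular identifiers. The deposited values are raw read counts per gene: the authors trimmed reads, aligned them to mm10 with STAR 2.4.2a, removed duplicates with SAMtools 0.1.19-444 and counted with htseq-count in union mode. They tested with DESeq2 1.4.5, and 25 columns of normalized counts in 5 tables that also hold their fold changes and p-values were not used. Reads outside genes (11.26% to 18.74%) were left out. Totals of 19039295 to 30451430 counts limit precision for markers of few counts.

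Groups were taken from the sample records. TMM scaling and quasi-likelihood tests on the libraries of each comparison were run with edgeR 4.0.16 after its expression filter (R 4.3.3, limma 3.58.1), with Benjamini-Hochberg adjustment, and tested on simulated data. DESeq2 1.42.0 was an alternative, beside its size factors, library size scaling, no filter, at least 10 counts in every library, all groups together, a replicate block and leaving out each library. Depletion in the IP needed a fold under 0.5, a larger change than enrichment, after the study's methods. The 9 markers, the 7 lists of related genes and the cell type markers were chosen with earlier results of these data known. Beyond them, text names the 3 genes most correlated with *Lct* and *Trhr* and the 3 strongest regional genes in each direction of at least 5 CPM called in both genotypes. Python 3.11.15, pandas 2.3.3 and matplotlib 3.10.9 were used for tables and plots. Gene positions and exon lengths are from the GENCODE annotation of mm10.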

Additional observations from a re-analysis of the deposited data

How the results depend on the processing

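The 8 regional calls in each genotype kept their direction and side of the threshold under every alternative in which the marker was tested. *Trhr* could not be tested with at least 10 counts in every library. *Stra6*, not called, was called lower in WT vDG in the fit with a replicate block (log2 fold change -0.51, FDR = 0.0194, edgeR) and without WT dDG input 3. The number of all genes called between regions in cKO (2642) was 1360 with all groups in 1 fit and 1428 to 3084 when 1 library was left out, the lowest without cKO dDG input 2.

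Of the IP calls, 1 of 2 remained in WT with library size alone, and 1 to 2 when 1 library was left out (1 without WT vDG IP 2, WT vDG input 1 or WT vDG input 3, where *Spata13* was lost). In cKO 1 remained with DESeq2 (*Lct* was lost), with library size alone and with at least 10 counts in every library (*Spata13* was lost), and 0 to 2 when 1 library was left out (0 without cKO vDG input 1, 1 without cKO vDG IP 2, where *Spata13* was lost). Over all genes the count in WT (2870) was 1682 with at least 10 counts in every library, and that in cKO (3343) was 1894 to 3702 when 1 library was left out. The cause was not tested.

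Between genotypes *Trhr* in vDG input was called without WT vDG input 1, so that 0 to 1 markers were called when 1 library was left out. Counts over all genes depended on the setting. In the vDG IP the 60 calls became 353 with DESeq2, 115 with library size alone, 379 with no filter, 470 with all groups in 1 fit and 0 to 184 when 1 library was left out (0 without WT vDG IP 2 or cKO vDG IP 1, 184 without WT vDG IP 1). In vDG input the 385 became 626 with DESeq2, 660 with no filter, 140 with all groups in 1 fit and 6 to 638 (6 without cKO vDG input 1, 638 without WT vDG input 1). In dDG input the 5 became 188 with DESeq2, 378 with no filter, 0 with all groups in 1 fit, 137 with the replicate block and 0 to 130 (0 without either cKO library, 130 without WT dDG input 3). The interaction of genotype and region had 256 calls with DESeq2, 362 with no filter and 11 with the replicate block, and that of genotype and fraction 12 with no filter. The cause was not tested.

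Values that changed sign belonged to markers that were not called. For IP over input in WT these were *Nr2f2* (0.0149 with DESeq2 and 0.0150 with its size factors, 0.0204 with no filter, 0.0496 with all groups in 1 fit, -0.0671 to 0.0486 when 1 library was left out), *Gsg1l* (-0.0248 with library size alone, -0.0497 to 0.40), *Stra6* (-0.33 to 0.0875) and *Resp18* (-0.35 to 0.13). In cKO they were *Nr2f2* (0.0112 with DESeq2 and with its size factors, 0.0026 with no filter, 0.0489 with all groups in 1 fit, -0.0682 to 0.0766), *Stra6* (-0.14 with library size alone, -0.0077 with at least 10 counts, -0.15 to 0.26), *Trhr* (-0.12, -0.0034, -0.24 to 0.40), *Resp18* (-0.16, -0.0369, -0.0381 to 0.0919) and *Nr2f1* (-0.35 to 0.0242). Between genotypes they were, in the vDG IP, *Trhr* (0.16 with the replicate block, -0.36 to 0.18), *Stra6* (-0.23 to 0.11) and *Lct* (-0.16 to 0.42). In vDG input they were *Lct* (-0.0069 with the replicate block, -0.30 to 0.40), *Gsg1l* (-0.19 to 0.26) and *Nr2f1* (-0.22 to 0.13), and in dDG input *Lct* (-0.0709 to 0.17), *Spata13* (-0.0499 to 0.18) and *Cpne7* (-0.15 to 0.74). Interaction terms that changed sign were those of *Lct* with region (-0.0198 with the replicate block) and, with fraction, of *Cpne7* (-0.0226 with library size alone) and *Nr2f2* (-0.0349 with library size alone and -0.00075 with all groups in 1 fit).

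Input RNA was taken from tissue homogenate before the IP, but no source used here states that same-numbered IP and input libraries share a pool, and the records give them different numbers of mice. The correlation of same-numbered libraries' deviations over 10375 genes was 0.44, -0.12 and -0.28 between WT IP and input, 0.44 between cKO IP and input (where 2 libraries give 1 value) and 0.38, -0.08 and 0.24 between WT vDG and dDG input (0.11 in cKO). Between WT IP and dDG input, which were not tested against each other, it was 0.13, 0.22 and 0.30. Since not every same-numbered WT pair from groups that were tested correlated positively, the numbers were not taken to pair the samples. With the replicate block the same number of markers (2 in WT and 2 in cKO) was called between IP and input, and apart from *Stra6* it changed no call on a marker. The cKO dDG libraries are numbered 1 and 2 in the titles, which the block used, but 2 and 3 in the names of their data, so blocked values that include them depend on that choice. With 2 cKO libraries per group and 3 to 16 *Trhr* counts per dDG library, the parts of depth and of the number of libraries in the missing calls between genotypes were not tested. When a group was left with 1 library, that library was assumed to vary like the other group.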
